A study of Mus musculus with 4 samples.

Results

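Cytochrome P450 genes were described in cells that had been differentiated from mouse embryonic stem cells (ESCs) towards the cardiac lineage. They were taken from the table of normalized counts by name alone, as *Cyp* followed by a number, a letter and a number, or *Cyp51*. The retinoic acid genes *Cyp26a1*, *Cyp26b1* and *Cyp26c1* and the pseudogene *Cyp4f41-ps* were left out, as was *Cyp2ab1*, whose name has a pair of letters. This left 58 of the 24637 genes of the table. Messenger RNA had been sequenced from 4 libraries, 2 labelled WT (Taf4+/+) and 2 labelled *Taf4a*-/-, each from an independent ESC line. The lines were derived from blastocysts of *Taf4a*+/- crosses, so that all 4 passed through culture on feeder fibroblasts, and the null allele lacks a pair of *Taf4a* exons. Every line was grown for 5 days as embryoid bodies and for 9 days on gelatin-coated plates, and the samples are labelled day 9 of cardiac differentiation. TAF4 is a subunit of TFIID, the complex that recognizes core promoters and nucleates the transcription machinery, and the comparison addresses how gene expression differs in differentiating cells that carry the null allele.

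P450 enzymes are haem proteins that insert an oxygen atom into a lipophilic substrate, using electrons passed on by P450 reductase in the endoplasmic reticulum or by ferredoxin in mitochondria. Some members build or break down sterols, steroid hormones, bile acids and vitamin D, others hydroxylate or epoxidize fatty acids, and a large and fast-evolving set clears drugs and plant compounds, mostly in liver and gut. Heart tissue is known for epoxygenases and hydroxylases of arachidonic acid, and liver for most of the xenobiotic enzymes. By their subfamily names, the 58 genes fell into 26 xenobiotic genes, 16 fatty acid genes, 4 genes of bile acid and oxysterol metabolism, 4 of steroid hormone synthesis, 3 of vitamin D metabolism, 1 of sterol synthesis (*Cyp51*) and 4 with no settled substrate. Another 34 annotated protein-coding genes fit the name rule but had no row here, *Cyp7a1*, *Cyp8b1*, *Cyp19a1*, *Cyp2e1* and *Cyp3a11* among them, and were not analysed. No row was at 0 in all libraries, so these may be genes without reads.

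The reads on genes numbered 21732746 to 27733034 per library, and 1 read was worth 0.877 to 1.11 normalized counts. *Taf4a* itself went against the label, with 889 and 678 normalized counts in WT and 1722 and 1799 in the libraries labelled *Taf4a*-/-, and the counts cover the whole gene and not the deleted exons alone. The Y-linked genes *Ddx3y*, *Eif2s3y*, *Kdm5d* and *Uty* had reads only in replicate 1 of each genotype, at lower levels in the library labelled *Taf4a*-/- than in WT. The X-inactivation RNA *Xist* stood at 6.14 and 7.27 in WT and at 217 and 6470 in the libraries labelled *Taf4a*-/-. The libraries held markers of several cell types. The summed level of 10 cardiomyocyte markers was 28519 and 25760 in WT and 2966 and 2619 in the libraries labelled *Taf4a*-/-, with 9 of the 10 lower. That of 15 visceral endoderm and hepatocyte markers was 99459 and 84370 against 1779 and 1106, and that of 10 pluripotency markers was 5847 and 2935 against 17272 and 19429. In such bulk samples, fewer cells of a type and less RNA per cell cannot be told apart.

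TFIID acts at the core promoter, so the sequences just before the RefSeq start of members that the results turn on are given here, as the 120 bases from -120 to -1 in the direction of transcription. Capitals mark a TATA box (TATAAA) or the letters ATCACNNCA, a form of the element that sterol regulatory proteins bind. The latter was chosen after the *Cyp51* promoter had been read. Coordinates are those of GRCm38.p6. *Cyp20a1* (chr1:60343180-60343299, plus strand), *Cyp2s1* (chr7:25816526-25816645, minus strand), *Cyp3a13* (chr5:137921620-137921739, minus strand) and *Cyp51* (chr5:4104698-4104817, minus strand) were lower in the libraries labelled *Taf4a*-/-, whereas *Cyp1a1* (chr9:57697493-57697612, plus strand) overlapped between the genotypes.
Cyp20a1: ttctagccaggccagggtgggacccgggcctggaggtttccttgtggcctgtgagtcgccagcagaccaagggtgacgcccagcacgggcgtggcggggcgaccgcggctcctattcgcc
Cyp2s1: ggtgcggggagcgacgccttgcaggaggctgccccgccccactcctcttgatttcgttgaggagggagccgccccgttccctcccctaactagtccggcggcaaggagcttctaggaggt
Cyp3a13: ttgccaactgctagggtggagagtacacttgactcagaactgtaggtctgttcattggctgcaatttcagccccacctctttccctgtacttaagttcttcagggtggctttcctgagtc
Cyp51: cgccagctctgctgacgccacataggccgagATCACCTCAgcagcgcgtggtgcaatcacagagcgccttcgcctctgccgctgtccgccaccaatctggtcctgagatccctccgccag
Cyp1a1: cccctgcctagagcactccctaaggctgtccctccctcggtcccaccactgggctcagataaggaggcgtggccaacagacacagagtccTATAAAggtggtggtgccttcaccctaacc

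Of the 58 genes, 45 had a promoter in the RefSeq table, with 52 start sites, each covered by a window of 300 bases. TATAAA on either strand was present in 13 of the 52 windows (25%), against 13.6% of all 32851 promoters of that length. The genes that hold it were mostly those with few reads. It was found in 12 of 29 genes with a mean under 10 normalized counts over the 4 libraries and in 1 of 16 genes above it. That gene was *Cyp1a1*, where the box begins at -30. None of the 5 members that were called lower and had a promoter in the table holds TATAAA in its window. With TATAAA in 1 of 16 tested genes and 13.6% of all promoters, this does not set them apart. The split by level was not made for all genes. ATCACNNCA was in 3 of the 52 windows (5.77%), those of *Cyp51*, *Cyp4v3* and *Cyp2a5*, and in none of 16 windows of 13 other genes of sterol synthesis. It was in 2.77% of all promoters. The *Cyp51* match was fixed in advance, because the letters were chosen after its promoter had been read. The share of the members can therefore not be compared with that of all promoters. A match of letters is not a bound site, and no binding was measured in these files.

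Most P450 genes were barely expressed. Taking 3 reads as the floor of what a library can show, 20 of the 58 genes were at or under it in all 4 libraries, and 11 had 1 read in all. The number of genes above the floor was 36 and 28 in the WT libraries and 28 and 30 in those labelled *Taf4a*-/-. Just 21 genes averaged 10 or more normalized counts across the 4 libraries, the level above which genes were tested, and they were 5 of 26 xenobiotic genes, 8 of 16 fatty acid genes, 4 of 4 bile acid and oxysterol genes, 1 of 4 steroid hormone genes, 0 of 3 vitamin D genes, *Cyp51*, and 2 of 4 with no settled substrate. The summed level of all members was 10708 and 13388 normalized counts in WT and 8049 and 7536 in the libraries labelled *Taf4a*-/-. Counted in reads and not per length, *Cyp51* alone made up 42.5% to 51.2% of it. With *Cyp1b1*, *Cyp20a1* and *Cyp2s1* it made up 76.5% to 83.2%. Per kilobase of exon, the order in WT began with *Cyp51* at 1210 normalized counts, followed by *Cyp20a1* at 591, *Cyp1b1* at 443 and *Cyp2s1* at 216.

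**Figure D1:**
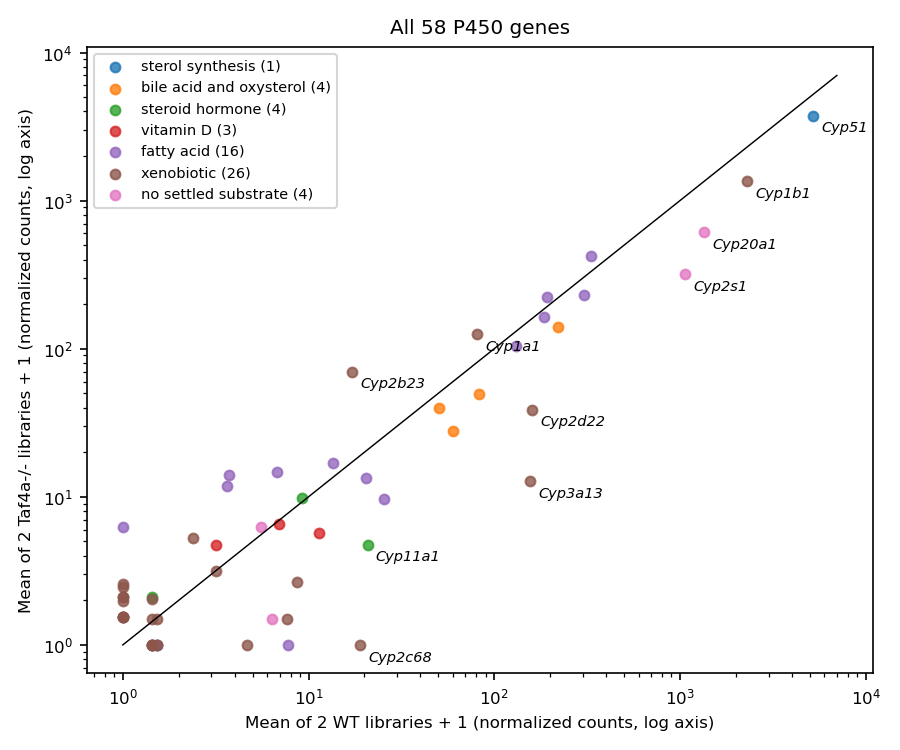
Mean of the 2 WT libraries (horizontal) against the mean of the 2 libraries labelled *Taf4a*-/- (vertical), each as normalized counts + 1 on a log axis, for all 58 genes coloured by substrate group, with a line at equal means. Most genes crowd the low corner, and *Cyp2c68* and *Cyp3a13* lie furthest below the line among the named genes, with *Cyp2b23* furthest above it.

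When the 21 genes were compared between the genotypes with limma on log2(normalized counts + 1), 6 were lower in the libraries labelled *Taf4a*-/- and 0 were higher, by a Benjamini-Hochberg adjusted p under 0.05. Of all 16926 genes tested, 17.3% were lower and 11.3% higher, and the members' share called lower, 28.6% of those tested, rests on 6 genes. The 6 were *Cyp3a13*, *Cyp11a1*, *Cyp2d22*, *Cyp2s1*, *Cyp20a1* and *Cyp51*. Of these, *Cyp11a1* reached the level for testing only through its WT values. At an unadjusted p under 0.05, 7 of the 21 genes were lower and 1 was higher. The median log2 fold change over the 21 genes was -0.47, and over all genes tested -0.01, which quantile normalization moved to 0.11. The quantile scaling also turned the split of all calls from 2928 lower and 1906 higher to 2459 lower and 2625 higher. In 14 of the 21 genes both libraries labelled *Taf4a*-/- lay below both WT libraries (36.6% of all genes tested), in 2 both lay above (34.5% of all genes tested), and 5 overlapped. With 2 libraries against 2, an exact two-sided permutation test of a single gene cannot go below p = 0.333, so that every call rests on the spread that limma shares across genes.

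**Figure D2:**
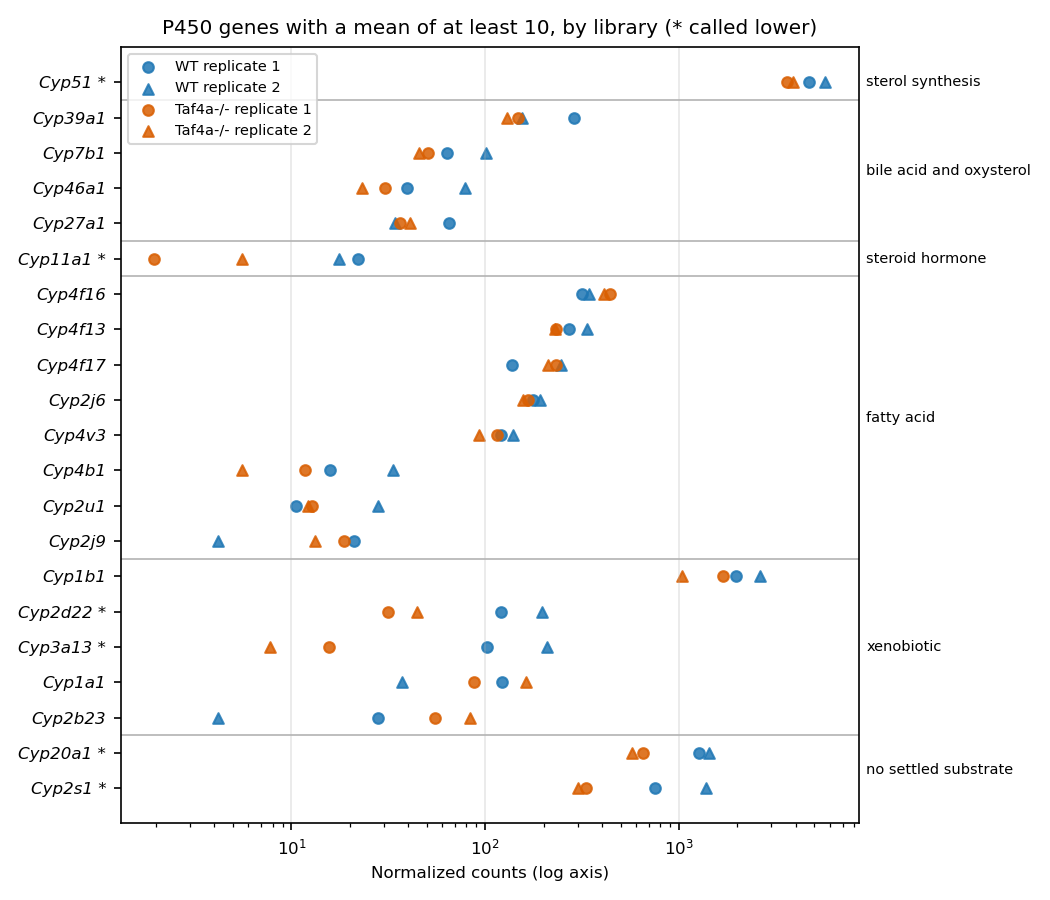
Normalized counts (log axis) in each library for the 21 P450 genes with a mean of at least 10, ordered by substrate group, with circles for replicate 1 and triangles for replicate 2 of WT (blue) and *Taf4a*-/- (orange). An asterisk marks the 6 genes called lower. The genotypes are apart in these and in others, with both libraries labelled *Taf4a*-/- below WT in 14 of the 21 genes and above in 2. The WT replicates differ more than the genotypes in 7 of the 21 genes.

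**Figure D3:**
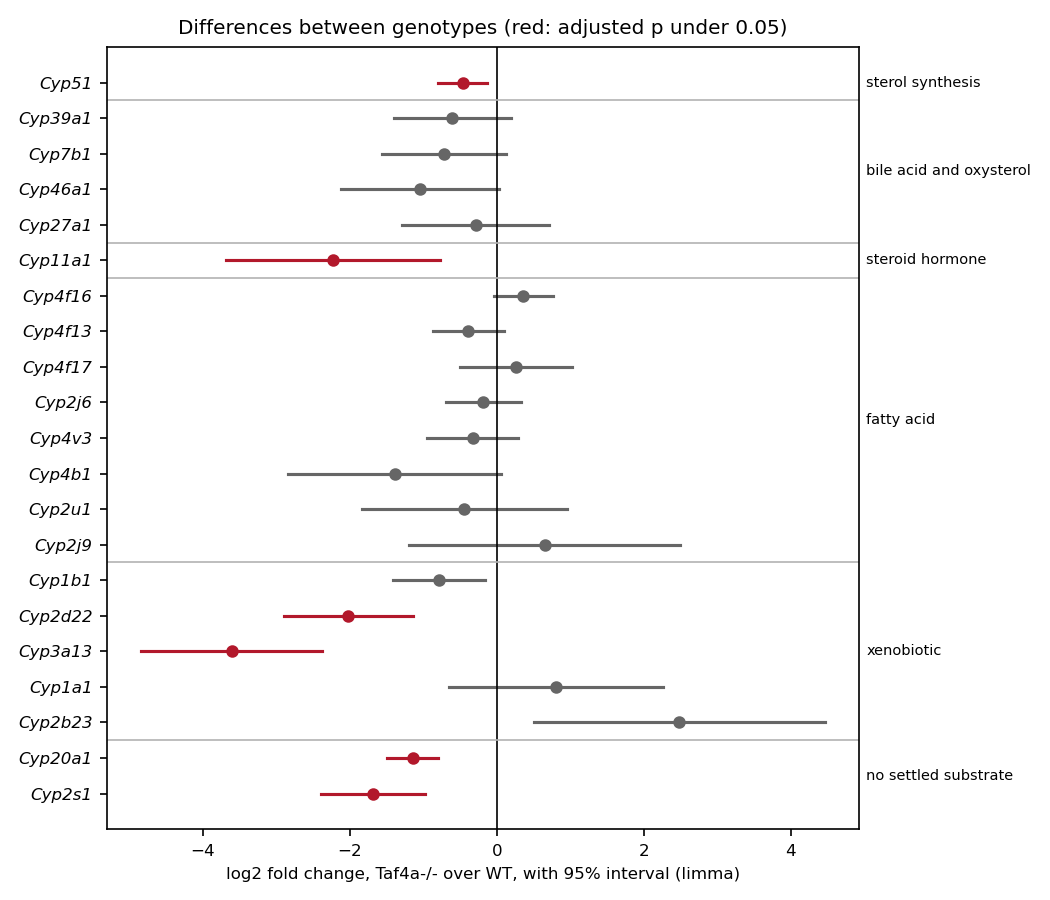
Log2 fold change of the libraries labelled *Taf4a*-/- over WT (horizontal) with the 95% interval from limma for the same 21 genes, with the 6 genes called lower in red. All 6 red intervals lie below 0, from *Cyp3a13* at -3.61 to *Cyp51* at -0.47.

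*Cyp51* encodes lanosterol 14-alpha-demethylase, the one P450 of cholesterol synthesis and the most conserved member of the superfamily. It stood at 4683 normalized counts in WT replicate 1, 5691 in WT replicate 2, and 3622 and 3858 in replicates 1 and 2 labelled *Taf4a*-/-, the order in which values of each gene are given. Both WT libraries were above both others, and the WT replicates were further apart than the nearest libraries of the 2 genotypes. The log2 fold change was -0.47 (standard error 0.14, limma adjusted p = 0.0486), or 72.1% of the WT mean. The call did not hold in 8 of 13 other settings, with adjusted p between 0.0223 and 0.279 over the 13. It was lost without WT replicate 2 (adjusted p = 0.0893) and without *Taf4a*-/- replicate 1 (0.279) or 2 (0.183).

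The other enzymes of its pathway were examined as a list of 20 sterol synthesis genes, *Insig1* included, of which 19 had a row and were tested. A total of 5 were lower, 0 were higher and 14 did not pass the test, against 17.3% lower and 11.3% higher among all genes tested. The median log2 fold change was -0.40 (all genes: -0.01). The largest difference was in *Hsd17b7*, a reductase that acts after *Cyp51* in the pathway, with 1693 and 2511 normalized counts in WT and 752 and 898 in the libraries labelled *Taf4a*-/- (log2 fold change -1.33, limma adjusted p = 0.00872). *Sc4mol*, the sterol C4-methyl oxidase, which also acts after *Cyp51*, had 3217 and 3684 against 1607 and 1903 (log2 fold change -0.98, limma adjusted p = 0.00639). *Lss*, *Fdft1* and *Sqle*, which precede *Cyp51*, had log2 fold changes of -0.53, -0.52 and -0.40. Their limma adjusted p-values ran from 0.0235 to 0.0453, and the call was lost in 8 of 13 other settings for *Sqle* and in 4 for each of *Lss* and *Fdft1*. Each of these 5 genes was lower in both libraries labelled *Taf4a*-/- than in either WT library. The number called lower was 2 without WT replicate 2, and also 2 without either library labelled *Taf4a*-/-. *Srebf2*, whose product activates the pathway, was named for that role after its values were seen, and had 7883 and 7183 normalized counts in WT and 7580 and 6861 in the libraries labelled *Taf4a*-/- (log2 fold change -0.06, adjusted p = 0.736).

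**Figure D4:**
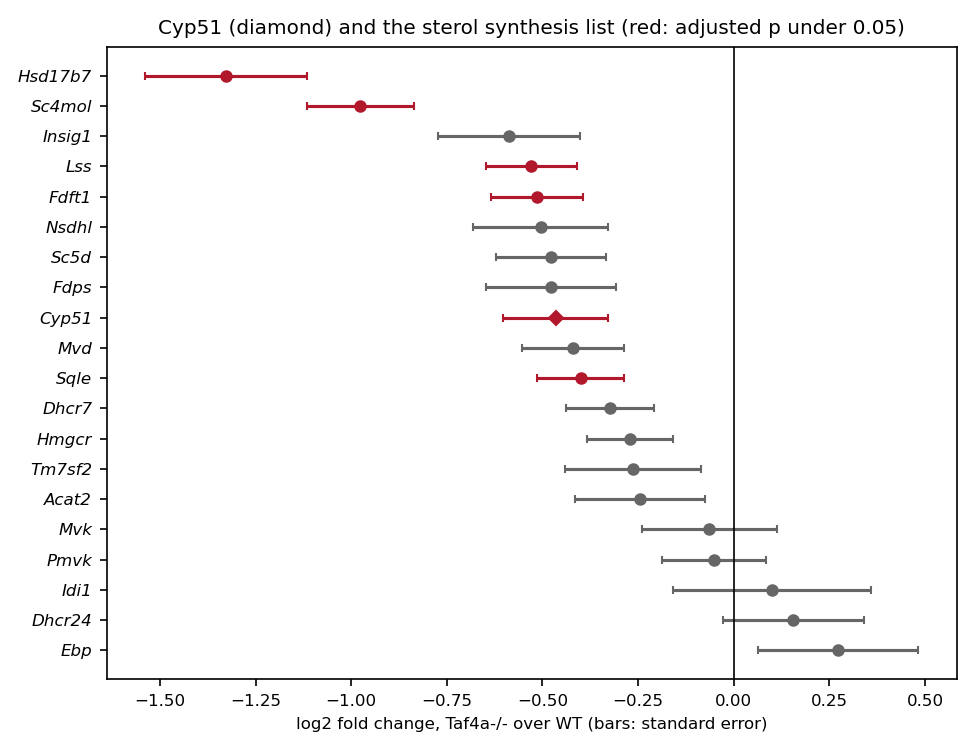
Log2 fold change of the libraries labelled *Taf4a*-/- over WT (horizontal, bars are standard errors from limma) for *Cyp51* (diamond) and the 19 tested genes of the sterol synthesis list, sorted, with genes at an adjusted p under 0.05 in red. *Cyp51* at -0.47 stands in the middle of the list, whose values run from -1.33 in *Hsd17b7* to 0.27 in *Ebp*.

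The 4 P450 genes of bile acid and oxysterol metabolism that had a row were measurable at low levels, and none passed the test. *Cyp39a1*, a 7-alpha-hydroxylase of 24-hydroxycholesterol, had 286 and 155 normalized counts in WT and 147 and 129 in the libraries labelled *Taf4a*-/-. WT replicate 1 stood alone, and the log2 fold change was -0.61 (95% interval -1.40 to 0.19, limma adjusted p = 0.210). *Cyp7b1*, the 7-alpha-hydroxylase of other oxysterols, had 63.1 and 101 against 50.9 and 45.3. *Cyp46a1*, the cholesterol 24-hydroxylase known from neurons, had 39.5 and 79.0 against 30.3 and 23.2. In both of these genes, WT replicate 2 was the highest library and the genotypes did not overlap, with log2 fold changes of -0.72 and -1.05 (limma adjusted p = 0.165 and 0.127). *Cyp27a1*, the mitochondrial sterol 27-hydroxylase, had 64.9 and 34.3 in WT and 36.2 and 40.9 in the libraries labelled *Taf4a*-/-, and overlapped. Its log2 fold change of -0.29 became 0.16 without WT replicate 1.

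Among the steroid hormone genes, *Cyp11a1*, the side-chain cleavage enzyme that makes pregnenolone from cholesterol, was the single tested gene. It had 21.9 and 17.7 normalized counts in WT (25 and 17 reads) and 1.96 and 5.53 in the libraries labelled *Taf4a*-/- (2 and 5 reads). Both WT libraries were above both others at a low level. The mean of *Cyp11a1* over the 4 libraries, 11.8, was the lowest among the tested members and reached the level for testing through WT alone. The log2 fold change was -2.23 (standard error 0.60, limma adjusted p = 0.0381), and the call was lost in 4 of 12 other settings. The adjusted p was 0.102 without WT replicate 1, 0.103 without WT replicate 2 and 0.154 without *Taf4a*-/- replicate 1. The genes that follow it in the pathway were at the edge of detection. *Cyp17a1* ranged from 6.14 to 10.4, *Cyp21a1* from 0 to 2.21 and *Cyp11b1* from 0 to 1.04 over the 4 libraries.

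Of 20 partners of the steroid and bile acid enzymes, 11 were tested. Of these, 3 were lower and 2 higher, against 17.3% and 11.3% of all genes tested. The log2 fold changes of the 11 had a median of -0.29. *Hsd3b1*, which acts on pregnenolone after *Cyp11a1*, had 26.3 and 30.1 normalized counts in WT and 3.92 and 2.21 in the libraries labelled *Taf4a*-/- (log2 fold change -2.88, limma adjusted p = 0.0123). *Star*, which carries cholesterol to the mitochondrial *Cyp11a1* enzyme, went the other way, with 89.4 and 108 in WT and 194 and 170 in the others (log2 fold change 0.88, limma adjusted p = 0.0411). The genotypes were apart in both genes, but the call of *Star* was lost with the replicate block and without any 1 of the 4 libraries and that of *Hsd3b1* without WT replicate 2. *Ch25h*, the non-P450 cholesterol 25-hydroxylase, fell by 2.14 on the log2 scale (limma adjusted p = 0.0302). *Hsd11b1*, the reductase that regenerates active glucocorticoid, fell by 2.06 from 11.4 and 22.9 normalized counts to 2.94 and 3.32 (limma adjusted p = 0.0439), and its call was lost in 8 of 12 other settings. *Hsd11b2*, the dehydrogenase that inactivates glucocorticoid, rose by 2.06 (limma adjusted p = 0.0107), from 2715 and 1269 normalized counts in WT to 6704 and 8927.

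Of 7 markers of cells that make steroids, *Nr5a1*, *Mc2r*, *Lhcgr* and *Cyp21a1* had at most 3.32 normalized counts in any library. *Star* and *Hsd3b1* are given above, and *Inha*, the inhibin alpha subunit and the highest of the 7, had 145 and 198 in WT and 243 and 223 in the libraries labelled *Taf4a*-/- (log2 fold change 0.46, limma adjusted p = 0.193). The summed level of the 7 was 262 and 339 in WT and 443 and 403 in the libraries labelled *Taf4a*-/-. Trophoblast giant cells also express *Cyp11a1* and *Hsd3b* genes. Of 9 trophoblast markers 7 had a row, none of the 4 tested passed the test, and their sum was 3762 and 1775 against 4785 and 6803, mostly from *Hand1*. The placental lactogen gene *Prl3b1* had 9.64 and 10.4 in WT and 0 and 1.11 in the libraries labelled *Taf4a*-/-. *Prl3d1*, near the floor of 3 reads, had 5.26 and 2.08 against 0 and 1.11. *Tpbpa* and *Elf5* were also below WT in both libraries labelled *Taf4a*-/-, *Hand1* was above WT in both, and *Ascl2* and *Gcm1* overlapped. The part of such cells in the *Cyp11a1* difference was not tested. All 3 vitamin D genes were under the level for testing. *Cyp2r1*, the 25-hydroxylase, ranged from 3.92 to 14.5, *Cyp27b1*, the 1-alpha-hydroxylase that makes the hormone, from 3.12 to 8.77, and *Cyp24a1*, the 24-hydroxylase that degrades it, from 0 to 5.53. The vitamin D receptor *Vdr* had 78.9 and 137 in WT and 17.6 and 9.95 in the libraries labelled *Taf4a*-/- (log2 fold change -2.88, limma adjusted p = 0.00856).

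The xenobiotic group held the largest difference among the members and also the most genes with few reads, 15 of its 26 being at or under the floor of 3 reads in all 4 libraries. *Cyp3a13*, a mouse CYP3A enzyme of gut and liver, had 103 and 208 normalized counts in WT and 15.7 and 7.74 in the libraries labelled *Taf4a*-/-. The lowest WT library was well above the highest of the others. The log2 fold change was -3.61 (standard error 0.51, limma adjusted p = 0.00604), which left 7.54% of the WT mean. *Cyp2d22*, a member of the CYP2D subfamily, had 121 and 197 in WT and 31.3 and 44.2 in the others. The genotypes did not overlap, and the log2 fold change was -2.02 (standard error 0.36, limma adjusted p = 0.0124), or 23.7% of WT. WT replicate 2 was the highest library in both genes. Without it, the adjusted p was 0.0544 for *Cyp3a13* and 0.0708 for *Cyp2d22*, and both passed the test in the 12 other settings tried.

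The CYP1 enzymes, which are induced through the aryl hydrocarbon receptor, did not pass the test. *Cyp1b1*, which also acts on steroids and is known from mesenchymal cells, had 1980 and 2634 in WT and 1682 and 1032 in the libraries labelled *Taf4a*-/-. Both WT libraries were above both others, but the libraries labelled *Taf4a*-/- spread widely, and the log2 fold change was -0.79 (95% interval -1.42 to -0.17, limma adjusted p = 0.0639). Without *Taf4a*-/- replicate 1 it was -1.15 (adjusted p = 0.00965), without *Taf4a*-/- replicate 2 it was -0.44 (0.265) and without WT replicate 2 it was -0.59 (0.281), and it was not called without WT replicate 1 either (0.0955). *Cyp1a1* had 122 and 37.4 in WT and 87.1 and 163 in the others and overlapped (log2 fold change 0.81, 95% interval -0.65 to 2.26, limma adjusted p = 0.345), and *Cyp1a2* had 3 reads in 1 library and none in the rest. The receptor *Ahr*, named for its role after its values were seen, had 807 and 655 in WT and 554 and 474 in the libraries labelled *Taf4a*-/- (log2 fold change -0.50, limma adjusted p = 0.0751). Beside *Cyp1b1*, 8 of 10 fibroblast and smooth muscle markers were lower and their summed level was 453689 and 644659 in WT and 64033 and 74706 in the others, and their part in its difference was not tested.

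*Cyp2b23*, of the CYP2B subfamily whose other members are induced by phenobarbital, had the largest positive difference among the tested members. It had 28.1 and 4.16 normalized counts in WT and 54.8 and 82.9 in the libraries labelled *Taf4a*-/-. The genotypes did not overlap, but the WT replicates differed more than any other pair of replicates among the tested members. The log2 fold change was 2.48 (95% interval 0.51 to 4.46, limma adjusted p = 0.0657), and the gene passed the test with a pseudocount of 10, with quantile normalization and without WT replicate 1. Its log2 fold change was 3.73 without WT replicate 1 (adjusted p = 0.0182) and 1.24 without WT replicate 2 (0.130). *Cyp2b10* and *Cyp2b9* had 1 and 2 reads, in *Taf4a*-/- replicate 2, and *Cyp2b19* ranged from 1.04 to 5.53.

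The other 21 xenobiotic genes were under the level for testing. The highest of them was *Cyp2c68*, just under it, with 14.9 and 20.8 normalized counts in WT (17 and 20 reads) and 0 in both libraries labelled *Taf4a*-/-. Set against the floor of 3 reads per library, it was at least 5.71-fold lower there. This gene shares 43.3% of its transcript windows of 50 bases with other genes, 35.6% with its close relative *Cyp2c40*, and over the shared part reads of these genes cannot be told apart. *Cyp2c65* had 7.01 and 6.23 in WT and 0.979 and 0 in the others, *Cyp2c70* had 5.26 and 2.08 against 0 and 0, and *Cyp2d26* had 7.01 and 8.31 against 0 and 3.32. In these genes the WT libraries were the higher ones. The remaining 17 genes had at most 5.53 in any library.

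**Figure D5:**
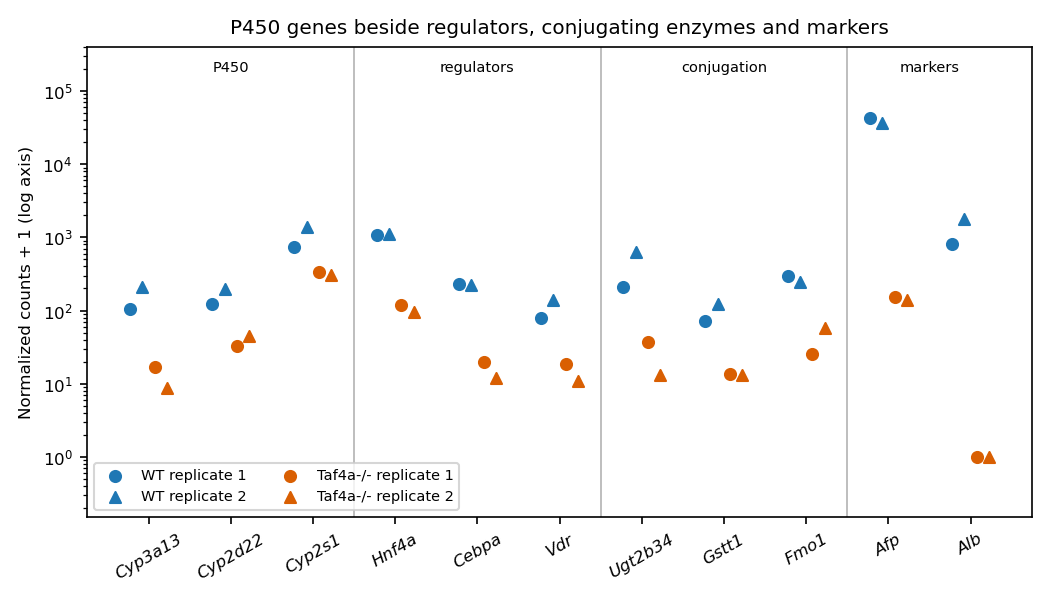
Normalized counts + 1 (log axis) in each library for *Cyp3a13*, *Cyp2d22* and *Cyp2s1*, for the 3 regulators and the 3 conjugation and transport genes with the largest falls, and for the markers *Afp* and *Alb*, with circles for replicate 1 and triangles for replicate 2 of WT (blue) and *Taf4a*-/- (orange). All 11 genes were chosen among those that were lower, so that the libraries labelled *Taf4a*-/- lie below WT by choice, and *Alb* is at 0 in both. Of the full lists, 4 of 15 tested regulators were lower. Among 16 tested conjugation and transport genes, 7 were lower and 3 higher. Of all genes tested, 17.3% were lower and 11.3% higher.

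The regulators of P450 genes were listed as 19 genes, of which 15 were tested. A total of 4 were lower and 0 higher, against 17.3% and 11.3% of all genes tested. The log2 fold changes of the 15 had a median of -0.40. *Hnf4a*, a liver and gut nuclear receptor, had 1077 and 1118 normalized counts in WT and 117 and 95.1 in the libraries labelled *Taf4a*-/- (log2 fold change -3.36, limma adjusted p = 0.000635). *Cebpa* had 227 and 223 against 18.6 and 11.1 (log2 fold change -3.88, limma adjusted p = 0.00196). *Vdr* and the glucocorticoid receptor gene *Nr3c1* were the other genes that were lower, with log2 fold changes of -2.88 and -1.79. All 4 were apart between the genotypes. *Nr1i2*, which encodes the drug-sensing receptor PXR that is known to induce CYP3A genes, had 1 read in the 4 libraries.

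*Cyp3a13* and *Cyp2d22* were lower beside markers of visceral endoderm and hepatocytes, all 14 tested of which were lower. *Alb* had 799 and 1797 normalized counts in WT and 0 in both libraries labelled *Taf4a*-/-, and *Serpina1a* was also at 0 there. Both reached the level for testing through WT alone. *Afp* had 42655 and 36728 in WT and 152 and 140 in the others. The gut epithelial markers *Vil1* and *Fabp2* were lower as well, from 842 and 691 to 27.4 and 48.7, and from 39.5 and 55.1 to 0.979 and 1.11. *Fabp2* was tested through its WT values alone. The other gut markers listed did not pass the test. *Cdx2*, an intestinal transcription factor, had 308 and 283 in WT and 496 and 399 in the others (log2 fold change 0.59, limma adjusted p = 0.0586), and the mucin gene *Muc2* had 11.4 and 15.6 against 15.7 and 3.32 and overlapped. The part of these cells in the P450 differences was not tested.

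Enzymes and carriers that follow P450 action in drug clearance were listed as 22 genes, of which 21 had a row and 16 were tested. A total of 7 were lower and 3 higher, against 17.3% and 11.3% of all genes tested. The log2 fold changes of the 16 had a median of -0.57. The largest falls were in the glucuronosyltransferase *Ugt2b34*, with 210 and 634 normalized counts in WT and 36.2 and 12.2 in the libraries labelled *Taf4a*-/- (log2 fold change -4.05, limma adjusted p = 0.01), in the glutathione transferase *Gstt1* (-2.81, adjusted p = 0.00649) and in the flavin monooxygenase *Fmo1* (-2.81, adjusted p = 0.00757). The microsomal epoxide hydrolase *Ephx1*, which acts on epoxides made by xenobiotic P450 enzymes, was lower by 2.03 on the log2 scale. *Ephx2*, the soluble hydrolase of fatty acid epoxides, had 153 and 171 in WT and 324 and 325 in the others and was higher (log2 fold change 1.00, limma adjusted p = 0.0152). The quinone reductase *Nqo1* and the efflux pump *Abcb1a* were the other genes that were higher, by 1.03 and 1.84.

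The fatty acid genes were the group with the most tested members, and none of 8 passed the test. Their summed level was 1090 and 1339 normalized counts in WT and 1267 and 1176 in the libraries labelled *Taf4a*-/-, and overlapped. The CYP4F enzymes hydroxylate leukotrienes and long-chain fatty acids. *Cyp4f16* had 316 and 345 in WT and 440 and 410 in the others. Both were above both WT libraries, with a log2 fold change of 0.36 (95% interval -0.04 to 0.76, limma adjusted p = 0.147). With quantile normalization it was 0.56 (adjusted p = 0.0469), and 24.8% of its transcript windows of 50 bases are shared with other genes, mostly *Gm9705*. *Cyp4f13* had 270 and 335 in WT and 231 and 228 in the others (log2 fold change -0.39, 95% interval -0.87 to 0.09, limma adjusted p = 0.187), and *Cyp4f17* had 137 and 247 against 232 and 210. The latter overlapped, and its log2 fold change of 0.26 turned to -0.16 without WT replicate 1.

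*Cyp2j6*, an arachidonic acid epoxygenase of the subfamily best known in heart, had 177 and 191 normalized counts in WT and 166 and 157 in the libraries labelled *Taf4a*-/-. The difference was small against its error (log2 fold change -0.19, 95% interval -0.69 to 0.32, limma adjusted p = 0.532), while 9 of 10 cardiomyocyte markers were lower in the same libraries. *Tnnt2*, the cardiac troponin T gene, had 2730 and 3281 in WT and 484 and 470 in the others. The part of cardiomyocytes in the *Cyp2j6* values was not tested. *Cyp2j9* ranged from 4.16 to 21 over the libraries, with both extremes in WT. *Cyp4v3*, a fatty acid omega-hydroxylase, had 121 and 139 in WT and 115 and 92.9 in the others (log2 fold change -0.33, 95% interval -0.95 to 0.29, limma adjusted p = 0.366), and 313 of its exonic bases overlap *Klkb1* on the same strand. *Cyp2j6* and *Cyp4v3* were 0.13 and 0.018 with quantile normalization. *Cyp4b1* had 15.8 and 33.2 in WT and 11.7 and 5.53 in the others, without overlap (log2 fold change -1.39, 95% interval -2.84 to 0.05, limma adjusted p = 0.128), and *Cyp2u1* ranged from 10.5 to 28.1 and overlapped.

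Another 8 fatty acid genes were under the level for testing. *Cyp4f39* and *Cyp4f15*, in the same cluster on chromosome 17, had 5.26 and 6.23, and 4.38 and 1.04 normalized counts in WT. In the libraries labelled *Taf4a*-/- they had 17.6 and 9.95, and 13.7 and 12.2, above both WT libraries. *Cyp4f18*, the CYP4F member of myeloid cells, had 5.26 and 8.31 in WT and 0 in both others, at least 2.17-fold lower against the floor of 3 reads. The summed level of 12 macrophage markers was 14086 and 18234 in WT and 278 and 422 in the others. All 12 were lower, many of them tested through their WT values alone, and *C1qa* was at 0 in both libraries labelled *Taf4a*-/-. The part of these markers in the *Cyp4f18* difference was not tested. *Cyp2j13* went the other way, with 0 in both WT libraries and 4.89 and 5.53 in the others, at least 1.81-fold higher. Among all 37 genes under the level for testing, the libraries labelled *Taf4a*-/- were both below WT in 7 (14.2% of all such genes of the table), both above in 6 (20.0%) and overlapped in 24.

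The genes with no settled substrate included the member with the smallest adjusted p. *Cyp20a1*, a conserved enzyme whose substrate is not established, had 1271 and 1432 normalized counts in WT and 649 and 572 in the libraries labelled *Taf4a*-/-. The replicates of each genotype lay close together and the genotypes were far apart. The log2 fold change was -1.15 (standard error 0.14, limma adjusted p = 0.00414), or 45.2% of WT, and it was the one member called in all 13 other settings. *Cyp2s1*, an epithelial enzyme known for its expression in airway and gut, had 749 and 1386 in WT and 333 and 302 in the others. WT replicate 2 was the highest library and both WT libraries were above both others. The log2 fold change was -1.68 (standard error 0.29, limma adjusted p = 0.0112), or 29.7% of WT, and the call was lost only without a variance trend (adjusted p = 0.0502). *Gm17445*, on the other strand, overlaps 260 exonic bases of *Cyp2s1*, and the kit does not keep the strand. Of 8 airway and intestinal markers 6 had a row, and 2 of the 5 tested were lower, *Vil1* and *Fabp2* (17.3% of all genes tested were lower). *Cdx2*, *Muc2* and the ciliated cell factor *Foxj1*, with 113 and 159 in WT and 71.5 and 68.6 in the others (limma adjusted p = 0.0549), did not pass the test, and *Sftpc* had at most 1.96. *Cyp2w1* had 9.64 normalized counts in WT replicate 1 and at most 1.04 elsewhere, and *Cyp2t4* ranged from 2.08 to 7.01.

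The WT lines differed from each other in their P450 genes. The median absolute log2 difference between WT replicates 1 and 2 was 0.85 over the 21 tested members and 0.26 over all genes tested, and between the libraries labelled *Taf4a*-/- it was 0.18 and 0.16. WT replicate 2 was the higher in 15 of the 21 genes, and in 5 of the 6 that were called lower, *Cyp11a1* being the exception. In 7 genes the WT replicates were further apart than the genotypes, and none of these was called. The marker lists did not share a direction between the WT lines. *Alb* was higher in WT replicate 2, as were 11 of 12 macrophage markers, while 6 of 15 endoderm and hepatocyte markers were.

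The partners that bring electrons or haem to P450 enzymes were listed as 12 genes, all of which were tested. Of these, 1 was lower and 0 were higher, against 17.3% and 11.3% of all genes tested. The list is too short to compare these shares, and its median log2 fold change was -0.14. *Por*, the reductase of all microsomal P450 enzymes, was named for that role after its values were seen. It had 1867 and 2085 normalized counts in WT and 2207 and 2031 in the libraries labelled *Taf4a*-/- and overlapped (log2 fold change 0.10, limma adjusted p = 0.562). *Cyb5r3*, the reductase of cytochrome b5, had 4400 and 5095 in WT and 3481 and 3575 in the others (log2 fold change -0.42, limma adjusted p = 0.0476), and its call was lost in 8 of 13 other settings. A pair of enzymes that share the P450 fold but need no electron donor make prostanoids, and both were lower. *Tbxas1*, thromboxane synthase of platelets and macrophages, had 80.7 and 66.5 in WT and 0.979 and 0 in the others, a single read against 156 reads (0.7% of WT, 95% exact binomial interval 0.0176% to 3.96%, limma adjusted p = 0.00251). That interval covers counting error alone, not the spread between lines. *Tbxas1* reached the level for testing through WT alone. *Ptgis*, prostacyclin synthase of vascular cells, had 599 and 848 in WT and 307 and 373 in the others (log2 fold change -1.07, limma adjusted p = 0.0179). The macrophage markers given above moved with *Tbxas1*, and their part was not tested. Beside *Ptgis*, 1 of 8 endothelial markers was lower and 7 were not called. Their summed level was 12463 and 8397 in WT and 6302 and 10552 in the others, and overlapped. Of the fibroblast and smooth muscle markers, 8 of 10 were lower. The part of these cells in the *Ptgis* difference was not tested.

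Many P450 genes lie in clusters. In the build of the files (NCBIM37, mm9), 39 of the 58 genes lay within 500 kb of another, in 8 clusters. The largest ran from *Cyp2s1* to *Cyp2t4* on chromosome 7 (chr7:26587494-27943687) and held 10 members, of which *Cyp2s1* was called lower, *Cyp2b23* had a positive difference that was not called, and 8 were under the level for testing. The CYP4F cluster (chr17:32605404-33084347) held 7 members, with both libraries labelled *Taf4a*-/- above WT in 3 and below in 1. The CYP2C cluster (chr19:39081509-40261823) held 7, none of which was tested, with 3 below and 1 above. Such separation was common in the whole table, where 36.6% of tested genes lay below and 34.5% above, and 14.2% and 20.0% of genes under the level for testing. *Cyp1a1*, *Cyp1a2* and *Cyp11a1* lay together on chromosome 9 (chr9:57524744-57874827), where *Cyp11a1* was lower and *Cyp1a1* overlapped. *Cyp20a1* (chr1:60400167-60444904, plus strand), *Cyp3a13* (chr5:138334160-138362847, minus strand) and *Cyp51* (chr5:4081145-4104746, minus strand) lay alone by this distance.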

How the data were processed

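Poly(A) RNA of 4 libraries, 2 per genotype, was sequenced from unstranded TruSeq libraries. Per the labels and methods, the authors mapped reads to mm9 (TopHat 1.3.3), counted them on genes (HTSeq 0.5.3p1) and deposited counts normalized with DESeq; the strand setting is not given in the sources used here. Other values of the deposited table are gene names. Dividing each library by the value of 1 read gave 100% whole numbers (tolerance 0.001). Floors and the binomial interval account for counting error alone, because the reads carry no molecular identifiers.

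Testing used limma 3.58.1 (R 4.3.3, eBayes with trend) on log2(value + 1) for the 16926 genes that averaged 10 or more, a scale that understates changes of low genes. A gene can reach that mean through a single genotype, as *Cyp11a1*, *Hsd3b1*, *Ch25h*, *Hsd11b1* and *Tbxas1* did through WT. The same holds for *Fabp2* and for several hepatocyte and macrophage markers, *Alb*, *Serpina1a* and *C1qa* among them. For such genes the filter itself favours a fall, so their direction is no separate evidence. P-values were two-sided and adjusted by Benjamini-Hochberg over all 16926, and genes were called under 0.05. They rest on the spread between 2 lines per genotype combined with a spread shared across genes. The shared part (the prior) had 4.17 of 6.17 total degrees of freedom. The script was tested on simulated data. Members, lists and tests were chosen with earlier results of these data known. Members that were called, or had a mean of at least 100 in a genotype, are given by library, and in each partner list the 3 largest falls and rises among called genes and called direct partners are named. Some genes of these lists are not reported here and were left out of their counts. Other genes outside these rules, such as single markers and the members described by range, were chosen after their values were seen. Promoters are from RefSeq (GRCm38.p6), without conversion of coordinates, and gene models from NCBIM37. Shared windows are stretches of 50 bases of annotated transcripts found in another gene. Plots were made in matplotlib 3.10.9 (Python 3.11.15). Alternatives were other pseudocounts, filters, scalings, variance models and thresholds, a replicate block, and leaving out each library.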

Additional observations from a re-analysis of the deposited data

How the results depend on the processing

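Of 266 values of tested P450 genes under 13 alternatives, 238 kept their direction and their side of the threshold, 15 lost the call, 5 gained one and 8 changed sign. *Cyp20a1* was called in all 13 (adjusted p 0.00363 to 0.0391), *Cyp3a13*, *Cyp2d22* and *Cyp2s1* in 12, *Cyp11a1* in 8 of 12 (a minimum mean of 50 left it untested) and *Cyp51* in 5 of 13. None of the 8 that changed sign was called. With 1 library left out, the log2 fold change ran from -0.033 (without WT replicate 2) to 1.64 in *Cyp1a1*, from -0.40 (without WT replicate 2) to 1.70 in *Cyp2j9*, from -1.11 to 0.22 (without WT replicate 2) in *Cyp2u1*, from -0.74 to 0.16 (without WT replicate 1) in *Cyp27a1*, from -0.16 (without WT replicate 1) to 0.69 in *Cyp4f17* and from -0.13 to 0.010 in *Srebf2*. With quantile normalization, *Cyp27a1* was 0.040, *Cyp2j6* 0.13 and *Cyp4v3* 0.018.

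The members called lower numbered 2 at an adjusted p under 0.01, and 2 to 5 with a library left out, the lowest without WT replicate 2. Those called higher were 1 with a pseudocount of 10, 1 without the filter, 2 with quantile normalization, 1 at an adjusted p under 0.1, and 0 to 1 with a library left out. Without the filter, *Cyp4f18*, *Cyp2c65*, *Cyp2c68* and *Cyp2j13* were called too.

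All genes called lower were 1741 without a variance trend and 1119 at 0.01, and those higher 856, 331, and 2903 at 0.1. With a library left out they ran from 1222 to 3038 lower and from 624 to 2476 higher. Partner genes called lower were 9 at 0.01, and those higher 8 with quantile normalization, 3 without a variance trend and 0 at 0.01. With a library left out they ran from 8 to 25 lower and from 1 to 4 higher. Of the 24 partner genes named as called, 14 lost the call without WT replicate 2 (adjusted p 0.0583 to 0.112), among them *Hsd3b1*, *Vdr*, *Ugt2b34*, *Fmo1* and *Ephx1*, 3 without WT replicate 1, 9 without *Taf4a*-/- replicate 1 and 10 without *Taf4a*-/- replicate 2. Each of these kept its direction. The cause of these shifts was not tested.

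The labels give replicates 1 and 2 in each genotype, but same-numbered libraries did not deviate together (correlation 0.01), and the labels give them no shared source. The Y-linked genes had reads in both replicate 1 libraries and in neither replicate 2. With the replicate block, the calls of *Cyp51* (adjusted p = 0.0588) and *Cyp11a1* (0.0542) were lost among the members, as were those of *Cyb5r3*, *Sqle*, *Star* and *Hsd11b1*, and 2657 genes were lower and 1536 higher. EdgeR, its TMM factors and DESeq2 were not run, and limma's voom on the recovered reads, chosen after the data were seen, called 2753 lower and 1813 higher. Genes of a few reads are limited by depth.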
